A study of Mus musculus with 10 samples.

Results

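The genes described here are those of 5 receptors and 5 enzymes. The receptors are for prostaglandin E2 (PGE2) and thromboxane (Ptger1, Ptger2, Ptger3, Ptger4 and Tbxa2r). The enzymes act on the route to PGE2 (Ptgs1, Ptgs2, Ptges, Ptges2 and Ptges3). All were found by gene symbol in the probe annotation of a mouse array, 10 of 18300 named genes, and each had 1 probe. RNA of B cells from the spleens of female mice aged 2 months was hybridised to 10 oligonucleotide arrays of the 2-colour kind, which gave 5 comparisons, each run on 2 arrays that had their dyes exchanged. The cells had been purified with a magnetic kit and came from mice labelled Ptger4-/- or Ptger4+/+; how the Ptger4 allele was made is not given in the sources used here. For 2 h, cells of each genotype were kept with F(ab')2 fragments of antibodies against IgM (anti-IgM), which engage the B cell receptor, or in medium. For 24 h, cells of each genotype were kept with anti-IgM and PGE2 or with anti-IgM alone. Finally, RNA labelled Ptger4-/- was set over Ptger4+/+ RNA directly, both from cells given anti-IgM and PGE2 for 24 h. The doses of anti-IgM and PGE2 are not given in the sources used here.

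Prostanoids are short-lived lipid signals made from arachidonic acid that phospholipases free from membranes. The cyclooxygenases, encoded by Ptgs1 (constitutive in many tissues) and Ptgs2 (induced by many stimuli), convert it to prostaglandin H2, and terminal synthases then make each prostanoid. Ptges encodes the inducible microsomal PGE synthase, Ptges2 a membrane-associated PGE synthase, and Ptges3 a cytosolic PGE synthase that is also p23, a co-chaperone of the chaperone Hsp90. PGE2 acts through the receptors EP1 to EP4, encoded by Ptger1 to Ptger4. Ptger2 and Ptger4 products raise cyclic AMP, the main Ptger3 product lowers it, and the Ptger1 product raises cell calcium. Tbxa2r encodes the receptor for thromboxane A2, which couples to calcium and is best known from platelets and smooth muscle.

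All values are log ratios of one RNA over the other on the same array, as the authors deposited them. They were turned so that the condition named first is on top. Their base is not stated and was read as 2. Natural logs cannot be told apart from log2, and if they hold, every log2 value and fold given here is too small. The values carry no level of a gene and no read depth, so genes cannot be ranked by abundance, and the number of arrays limits the precision. Their direction is likely rather than stated: read as Cy5 over Cy3, the 6 early response genes looked at lay between 1.66 and 4.08 on the 4 arrays of anti-IgM over medium. Values over all 22533 features correlated between the 2 arrays of a comparison at r = 0.74 and 0.71 for anti-IgM in cells labelled Ptger4-/- and in Ptger4+/+ cells, and at 0.57 between the genotypes. For PGE2 the arrays correlated at -0.22 in cells labelled Ptger4-/- and at 0.38 in Ptger4+/+ cells, so the arrays of PGE2 in cells labelled Ptger4-/- ran against each other over all features. The sources used here do not give whether the arrays of a pair held the same RNA extracts, and p-values may cover technical spread alone. Means below are of n = 2 arrays with the standard error (SE) of 1 limma fit over all 10 arrays, and a gene was called where its p, adjusted over all features by the Benjamini-Hochberg method, was under 0.05.

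The genotype label could not be checked on Ptger4 itself. Its probe gave 0.46 and 0.52 in RNA labelled Ptger4-/- over Ptger4+/+ RNA, which is a higher signal in the library labelled as lacking the gene. The sources used here give neither where the probe lies in the gene nor which part of it the allele lacks. Whether the probe can report the loss is therefore not known. The cells are therefore called by their labels throughout.

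With anti-IgM at 2 h, Ptger4, Ptger2, Ptgs2 and Ptges3 rose in cells of either genotype. With PGE2 at 24 h, Ptger4, Ptger2, Tbxa2r and Ptges3 fell in Ptger4+/+ cells, while no gene of the set was called in cells labelled Ptger4-/-. Between the genotypes under anti-IgM and PGE2, Ptger4, Ptger2, Tbxa2r, Ptgs2 and Ptges3 were higher in cells labelled Ptger4-/-, Tbxa2r by 3.2-fold and Ptgs2 by 2.05-fold. Ptger1, Ptger3 and Ptges were called in none of the 5 comparisons. The RNA is of whole cell preparations, so fewer cells of a type and less RNA per cell cannot be told apart in any of these ratios.

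**Figure D1:**
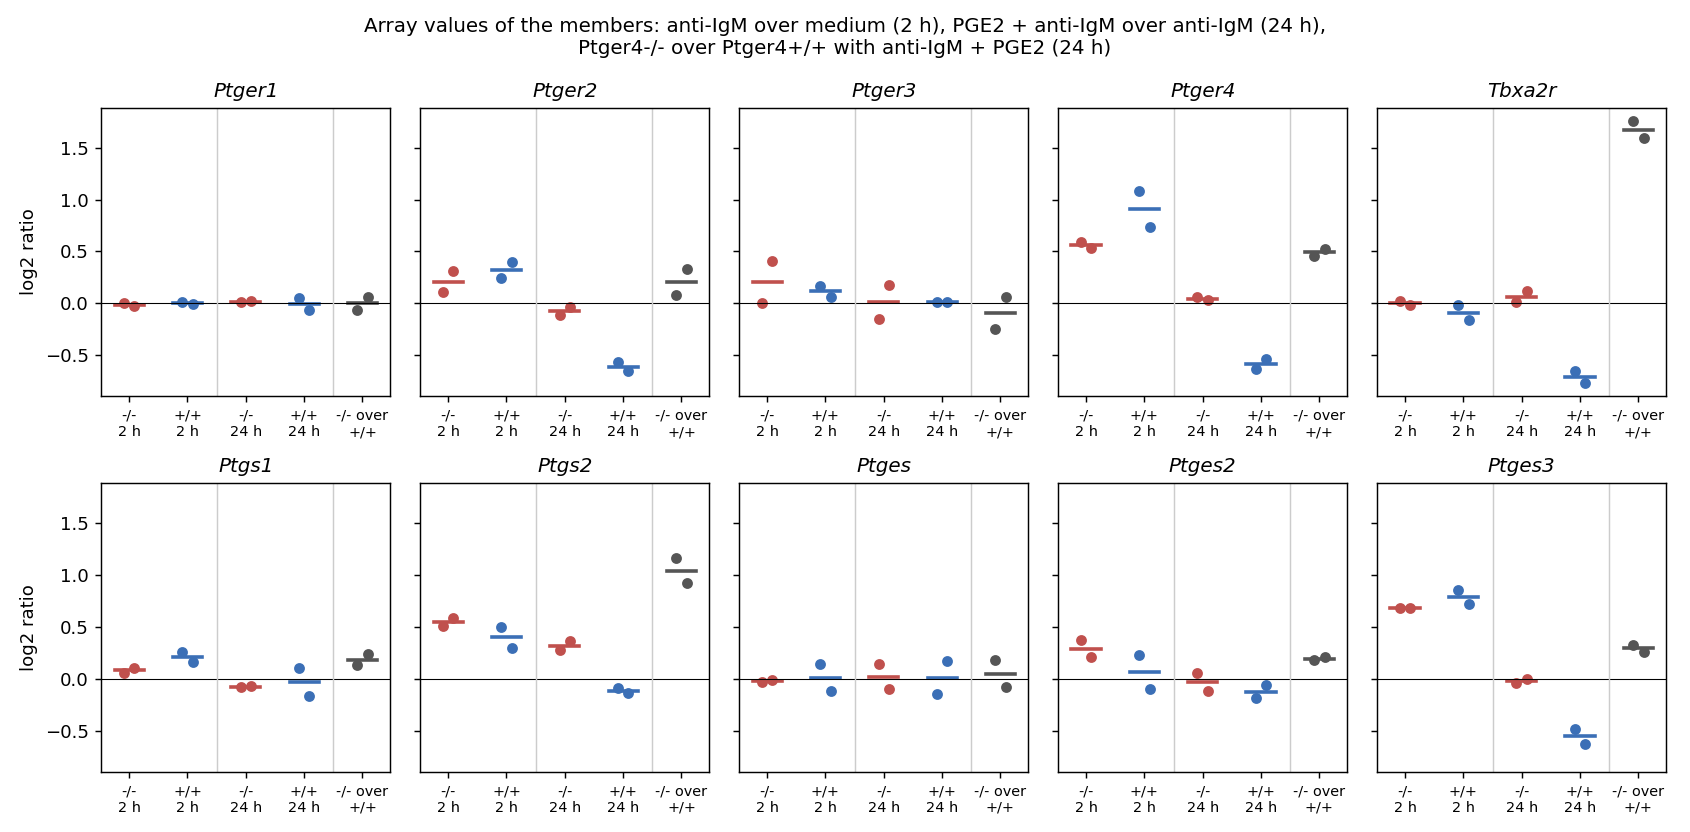
Turned log2 ratios of the 10 genes on each of the 10 arrays (vertical axis), with 1 point per array and a bar at the mean of the 2 arrays of a comparison. Columns are anti-IgM over medium at 2 h and PGE2 with anti-IgM over anti-IgM at 24 h, each for cells labelled Ptger4-/- and then Ptger4+/+ cells, and last Ptger4-/- over Ptger4+/+ with anti-IgM and PGE2. Tbxa2r and Ptgs2 stand highest in the last column, at 1.76 and 1.59 and at 1.16 and 0.92, and the points of Ptger1 stay within 0.06 of 0.

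By count, anti-IgM raised 5 of the 10 genes in cells labelled Ptger4-/- (Ptger4, Ptger2, Ptgs2, Ptges2 and Ptges3), against 11.6% of all features called higher and 11.7% called lower there. It raised 4 in Ptger4+/+ cells, where 9.71% of all features were called higher and 11.4% lower. PGE2 changed 0 of the 10 in cells labelled Ptger4-/-, where limma called 33 features in all, 0.146% in either direction, and 1880 at an unadjusted p under 0.05. In Ptger4+/+ cells PGE2 lowered 4 and raised 0, with 17% of all features lower and 9.11% higher (3835 and 2053 features, against 2329 and 577 without the dye term and 2783 and 856 with arrays scaled). Between the genotypes, cells labelled Ptger4-/- had 5 of the genes higher and 0 lower, where 15.9% of features were called higher and 11% lower (3593 and 2476, against 2130 and 619 without the dye term). The median log2 ratio of the 10 genes was 0.21 in cells labelled Ptger4-/- and 0.16 in Ptger4+/+ cells for anti-IgM, and 0.02 and -0.12 for PGE2. Between the genotypes it was 0.2, and the median of all features was within 0.008 of 0 in each of these comparisons.

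The promoters of the 5 genes called higher between the genotypes are shown so that their sequences can be set side by side. Each runs 5′ to 3′ on the strand of its gene, from 250 bases before to 50 bases after a start site, as given by RefSeq on build GRCm38.p6. Promoters were found for 9 of the 10 genes, with 2 for Tbxa2r, of which the second is printed because only that one holds a motif searched, and none for Ptger1. Capitals mark matches to the motifs searched.
Ptger4, chr15:5244138-5244437, minus strand: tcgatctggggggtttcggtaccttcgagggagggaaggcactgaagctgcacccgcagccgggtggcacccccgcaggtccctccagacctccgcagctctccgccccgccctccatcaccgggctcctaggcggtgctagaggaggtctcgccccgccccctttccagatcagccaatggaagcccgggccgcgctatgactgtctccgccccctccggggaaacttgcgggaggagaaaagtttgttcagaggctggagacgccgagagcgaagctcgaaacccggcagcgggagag
Ptger2, chr14:44987861-44988160, plus strand: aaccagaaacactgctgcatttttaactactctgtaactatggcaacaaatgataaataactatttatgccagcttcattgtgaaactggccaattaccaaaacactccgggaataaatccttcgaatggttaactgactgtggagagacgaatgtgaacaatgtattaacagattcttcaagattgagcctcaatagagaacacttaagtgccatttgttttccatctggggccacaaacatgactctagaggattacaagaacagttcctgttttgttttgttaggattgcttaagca
Tbxa2r, second start site, chr10:81328453-81328752, plus strand: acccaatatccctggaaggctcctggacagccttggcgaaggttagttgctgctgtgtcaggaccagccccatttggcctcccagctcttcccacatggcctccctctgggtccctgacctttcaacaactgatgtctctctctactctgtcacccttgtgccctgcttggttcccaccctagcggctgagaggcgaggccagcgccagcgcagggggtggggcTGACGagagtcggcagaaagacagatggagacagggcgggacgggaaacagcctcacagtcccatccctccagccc
Ptgs2, chr1:150099781-150100080, plus strand: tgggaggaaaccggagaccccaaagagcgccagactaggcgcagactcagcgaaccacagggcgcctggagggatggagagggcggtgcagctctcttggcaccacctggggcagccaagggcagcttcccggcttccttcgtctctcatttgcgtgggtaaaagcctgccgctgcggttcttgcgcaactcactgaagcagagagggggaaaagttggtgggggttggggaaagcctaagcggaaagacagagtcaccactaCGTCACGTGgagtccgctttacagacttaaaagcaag
Ptges3, chr10:128058732-128059031, plus strand: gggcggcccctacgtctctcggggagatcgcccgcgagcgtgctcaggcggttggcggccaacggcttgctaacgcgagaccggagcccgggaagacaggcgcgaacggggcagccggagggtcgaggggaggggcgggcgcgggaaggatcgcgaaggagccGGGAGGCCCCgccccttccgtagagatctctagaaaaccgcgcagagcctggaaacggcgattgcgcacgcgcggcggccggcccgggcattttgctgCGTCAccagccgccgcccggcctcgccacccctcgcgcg

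On either strand, 5 motifs were searched in these windows. The full cyclic AMP response element TGACGTCA was in 0 of the 10 promoters of the set and in 1.79% of 32851 mouse promoters of the same length. Its shorter form TGACG was in 3, at -26 from the second start site of Tbxa2r, at 14 bases into Ptgs2 and at 12 bases into Ptges3, the last pair on the minus strand of the gene, and in 20.8% of all promoters. The E-box CACGTG lay 17 bases into Ptgs2, overlapping the shorter element there, and at -77 of Ptges2, and 7.15% of all promoters held it. The NF-kB motif was at -87 of Ptges3 and in 8.46% of all promoters, and the heat shock element GAANNTTC was at -157 of Ptges2 and in 7.86%. The windows printed for Ptger4 and Ptger2 held none of the 5 motifs. GC content was 67% in the Ptger4 window and 37.7% in that of Ptger2.

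Among the receptors, Ptger4 rose with anti-IgM at 2 h in both genotypes and fell with PGE2 at 24 h in Ptger4+/+ cells. With anti-IgM its log2 ratio was 0.59 and 0.53 on the arrays of cells labelled Ptger4-/- and 1.08 and 0.74 on those of Ptger4+/+ cells. Both arrays labelled Ptger4-/- lay below both Ptger4+/+ arrays. The means were 0.56 ± 0.07 (SE, limma adjusted p = 0.000708) and 0.91 ± 0.07 (limma adjusted p = 7.22e-05), which is 1.47-fold and 1.88-fold over medium. The difference between these responses was -0.36 ± 0.10 and did not pass the test over all features (95% confidence interval -0.58 to -0.13, limma adjusted p = 0.137). With PGE2, Ptger4 stood at 0.06 and 0.03 in cells labelled Ptger4-/- and at -0.63 and -0.54 in Ptger4+/+ cells, so the genotypes did not overlap. PGE2 thus lowered it by 1.5-fold in Ptger4+/+ cells (mean -0.59 ± 0.07, limma adjusted p = 0.000964), a call lost when only its own arrays were fitted with no dye term. In cells labelled Ptger4-/- its interval for the PGE2 response was -0.11 to 0.2 (mean 0.04, limma adjusted p = 0.933). The mean of the arrays between the genotypes was 0.49 ± 0.07 (limma adjusted p = 0.00207); without the array that had the Ptger4-/- RNA in Cy5 it was 0.39 and not called.

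Ptger2, the other receptor that raises cyclic AMP, also rose with anti-IgM and fell with PGE2 in Ptger4+/+ cells. Anti-IgM gave 0.11 and 0.31 in cells labelled Ptger4-/- and 0.24 and 0.40 in Ptger4+/+ cells. The arrays of the genotypes overlapped here, and all 4 were above 0. The mean was 0.21 ± 0.05 in cells labelled Ptger4-/- (limma adjusted p = 0.015) and 0.32 ± 0.05 in Ptger4+/+ cells (limma adjusted p = 0.00221). The call in cells labelled Ptger4-/- was lost when either of its arrays was left out, with means of 0.24 and 0.18, and without the dye term, and both 2 h calls were lost when only the arrays of the comparison were fitted. With PGE2, Ptger2 gave -0.11 and -0.04 in cells labelled Ptger4-/- and -0.57 and -0.65 in Ptger4+/+ cells. Every array was below 0, and the genotypes were apart by more than the spread within either. The fall was called in Ptger4+/+ cells (mean -0.61 ± 0.05, limma adjusted p = 0.000199) and not in cells labelled Ptger4-/- (mean -0.07 ± 0.05, interval -0.18 to 0.04, limma adjusted p = 0.784). Between the genotypes its ratio was 0.08 and 0.33 (mean 0.2 ± 0.05, limma adjusted p = 0.0191), and this call was lost without either array of that comparison, at 0.26 and 0.14, without the dye term, with scaled arrays and when only its own arrays were fitted.

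Tbxa2r was the member furthest from 0 between the genotypes, and it was not called with anti-IgM at 2 h. In RNA labelled Ptger4-/- over Ptger4+/+ RNA its log2 ratio was 1.76 and 1.59 (mean 1.68 ± 0.06, 3.2-fold, 95% confidence interval 2.88-fold to 3.55-fold, limma adjusted p = 1.01e-05). Only 0.342% of all features stood higher in that comparison, and the call held under all 19 alternatives. With PGE2, Tbxa2r was at 0.01 and 0.12 in cells labelled Ptger4-/- and at -0.65 and -0.77 in Ptger4+/+ cells. All arrays of cells labelled Ptger4-/- were above 0 and all of Ptger4+/+ cells below. The mean of -0.71 ± 0.06 in Ptger4+/+ cells was the lowest of the 10 genes in that comparison (limma adjusted p = 0.00034), but the intervals of Tbxa2r, Ptger2, Ptger4 and Ptges3 overlapped there. In cells labelled Ptger4-/- the mean was 0.06 ± 0.06 (limma adjusted p = 0.882). At 2 h with anti-IgM, Tbxa2r gave 0.02 and -0.02 in cells labelled Ptger4-/- and -0.02 and -0.16 in Ptger4+/+ cells, none of it called.

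The remaining EP receptors showed no call. Ptger1 lay between -0.06 and 0.06 on all 10 arrays, and its residual spread was smaller than that of most features, with 19.5% of features below it. Ptger3 ranged from -0.25 to 0.41, with 88.8% of features having a smaller residual spread. Its arrays differed by up to 0.41 within a pair, at 0.00 and 0.41 for anti-IgM in cells labelled Ptger4-/-. The pair means of Ptger3 were between -0.09 and 0.21. Since no signal intensity was analysed here, a probe near background and a gene that does not change cannot be told apart for Ptger1 and Ptger3.

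Of the cyclooxygenase genes, Ptgs2 rose with anti-IgM and was 2.05-fold higher in cells labelled Ptger4-/- than in Ptger4+/+ cells under anti-IgM and PGE2. At 2 h it stood at 0.51 and 0.59 in cells labelled Ptger4-/- and at 0.50 and 0.30 in Ptger4+/+ cells. The arrays labelled Ptger4-/- were both the higher ones, by a margin of 0.01 at the closest pair. The means were 0.55 ± 0.07 (limma adjusted p = 0.001) and 0.40 ± 0.07 (limma adjusted p = 0.00585), the second lost without the array that had the anti-IgM RNA in Cy3 (0.3). Between the genotypes the arrays gave 1.16 and 0.92 (mean 1.04 ± 0.07, limma adjusted p = 8.04e-05), and all 19 alternatives kept the call. With PGE2, Ptgs2 was at 0.28 and 0.36 in cells labelled Ptger4-/- and at -0.09 and -0.14 in Ptger4+/+ cells. Ptgs2 was the one gene of the set whose 95% confidence interval with PGE2 in cells labelled Ptger4-/- did not include 0 (mean 0.32 ± 0.07, interval 0.15 to 0.49). That value ranked 89 from the highest of all features, had an unadjusted p of 0.00268 and was not called (limma adjusted p = 0.273). In Ptger4+/+ cells its mean was -0.12 ± 0.07 (limma adjusted p = 0.285).

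Ptgs1 made no call in any comparison. Its values with anti-IgM were 0.06 and 0.10 in cells labelled Ptger4-/- and 0.26 and 0.16 in Ptger4+/+ cells (limma adjusted p = 0.0625 for the mean of 0.21 in Ptger4+/+ cells). Between the genotypes its arrays gave 0.13 and 0.24 (mean 0.19 ± 0.06, limma adjusted p = 0.0722). With PGE2 it stood at -0.08 and -0.07 in cells labelled Ptger4-/- and at 0.10 and -0.17 in Ptger4+/+ cells, where the arrays lay on either side of 0.

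Among the terminal PGE synthases, Ptges3 changed in 4 of the 5 comparisons, Ptges2 in 1 and Ptges in none. With anti-IgM, Ptges3 stood at 0.68 and 0.68 in cells labelled Ptger4-/- and at 0.86 and 0.72 in Ptger4+/+ cells. All 4 arrays were well above 0, and those of Ptger4+/+ cells were the higher. The means were 0.68 ± 0.06 (limma adjusted p = 0.000102) and 0.79 ± 0.06 (limma adjusted p = 6.19e-05). With PGE2 it was at -0.04 and 0.00 in cells labelled Ptger4-/- and at -0.48 and -0.63 in Ptger4+/+ cells, with no overlap. The mean in Ptger4+/+ cells was -0.55 ± 0.06 (limma adjusted p = 0.000572, not called when only its own arrays were fitted), and that in cells labelled Ptger4-/- was -0.02 ± 0.06 (interval -0.15 to 0.12, limma adjusted p = 0.976). Between the genotypes Ptges3 gave 0.33 and 0.26 (mean 0.3 ± 0.06, limma adjusted p = 0.00843), not called without either array of that comparison (0.25 and 0.34) or when only its own arrays were fitted.

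Ptges2 rose with anti-IgM in cells labelled Ptger4-/-, where its arrays gave 0.37 and 0.21, against 0.23 and -0.10 in Ptger4+/+ cells. The genotypes overlapped, and the arrays of Ptger4+/+ cells disagreed in sign. The mean was 0.29 ± 0.06 in cells labelled Ptger4-/- (limma adjusted p = 0.0129) and 0.06 ± 0.06 in Ptger4+/+ cells (limma adjusted p = 0.586), and the difference of 0.22 ± 0.09 did not pass (limma adjusted p = 0.333). Without either array labelled Ptger4-/- the call was lost, at 0.28 and 0.29, as it was without the dye term and when only its own arrays were fitted. Between the genotypes Ptges2 had 0.18 and 0.21, just outside the threshold (mean 0.2 ± 0.06, limma adjusted p = 0.056). With PGE2 it lay at 0.06 and -0.12 in cells labelled Ptger4-/- and at -0.19 and -0.06 in Ptger4+/+ cells. Ptges, the inducible microsomal synthase, ranged from -0.15 to 0.18 over the 10 arrays, and its pair means were between -0.02 and 0.05. The arrays of a pair disagreed in sign for Ptges in 4 of the comparisons, and the fit gave it the largest dye effect of the 10 genes, -0.11.

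The difference between the PGE2 responses of the genotypes was tested directly. It passed for 5 of the 10 genes (Tbxa2r, Ptger4, Ptger2, Ptges3 and Ptgs2), each more positive in cells labelled Ptger4-/-, against 12.7% of all features called in either direction. In each of these 5, both arrays of cells labelled Ptger4-/- stood above both arrays of Ptger4+/+ cells. In the other genes the arrays overlapped. The same arrays gave the test, so their separation is no further evidence, and the share of all features that separate so was not counted. Tbxa2r differed by 0.77 ± 0.09 (limma adjusted p = 0.00243), Ptger4 by 0.63 ± 0.10 (limma adjusted p = 0.00647) and Ptger2 by 0.54 ± 0.07 (limma adjusted p = 0.00302). Ptges3 differed by 0.54 ± 0.08 (limma adjusted p = 0.00604) and Ptgs2 by 0.44 ± 0.10 (limma adjusted p = 0.0317). Their intervals overlap, so no order among the 5 is given. All 5 calls were lost when only the 4 arrays of PGE2 were fitted, with no dye term and with the differences unchanged in size, and that of Ptgs2 also without the dye term in the fit of all arrays. How many of all features kept a call with only those 4 arrays was not counted. For 4 of the 5 genes the difference comes with a called fall in Ptger4+/+ cells and a mean within 0.07 of 0 in cells labelled Ptger4-/-. Ptgs2 is the exception, with values above 0 in cells labelled Ptger4-/- and a mean of -0.12 in Ptger4+/+ cells, neither called. The Ptgs2 difference was not called when any of the 4 arrays of PGE2 was left out (0.36 to 0.52), and those of Ptger4 and Ptges3 were not called without the array of cells labelled Ptger4-/- that had the PGE2 RNA in Cy5 (0.59 and 0.51). Ptges2, Ptgs1, Ptger1, Ptger3 and Ptges differed by between -0.04 and 0.09.

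**Figure D2:**
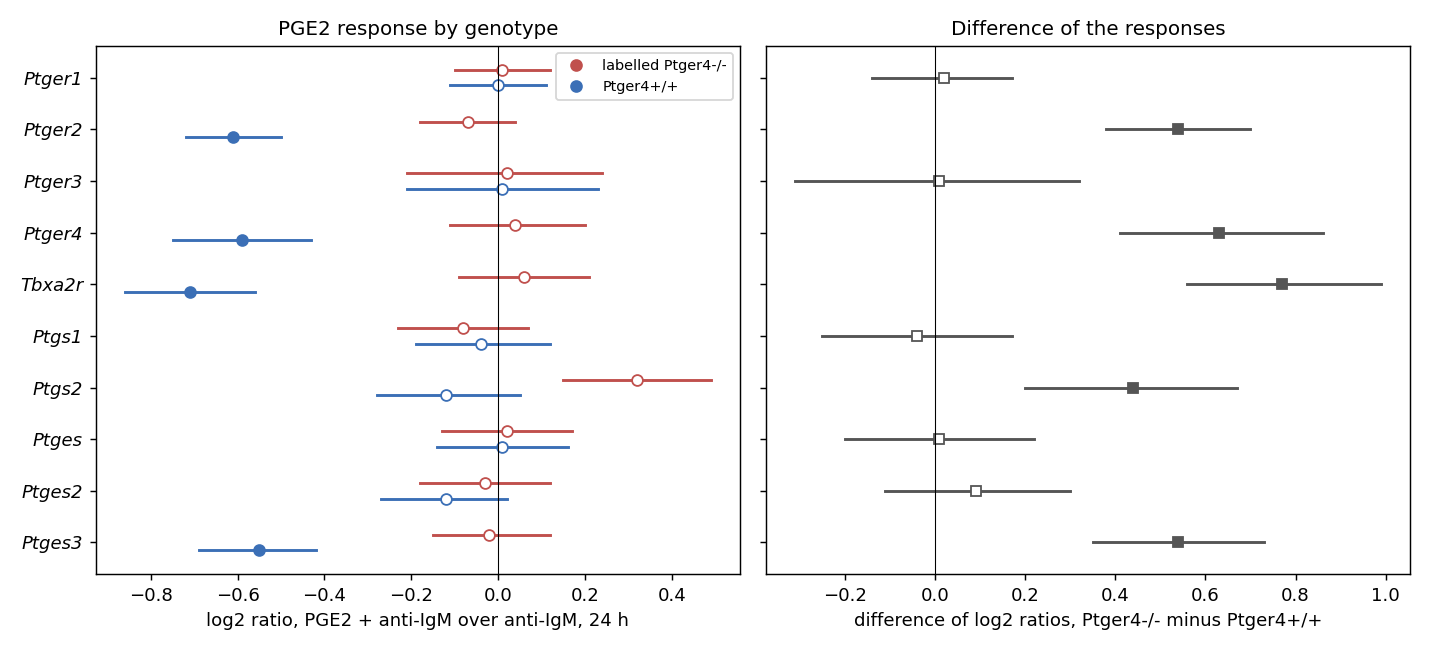
Response to PGE2 added to anti-IgM for 24 h (left, log2 ratio) in cells labelled Ptger4-/- (upper point of each gene) and in Ptger4+/+ cells (lower point), and the difference of these responses, Ptger4-/- minus Ptger4+/+ (right). Points are means of 2 arrays, lines are 95% confidence intervals of the limma fit, and filled points passed adjusted p under 0.05. Ptger2, Ptger4, Tbxa2r and Ptges3 lie between -0.55 and -0.71 in Ptger4+/+ cells and between -0.07 and 0.06 in cells labelled Ptger4-/-.

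For anti-IgM at 2 h the same test of the difference passed for 0 of the 10 genes by limma, against 1.74% of all features called in either direction. At an unadjusted limma p under 0.05 it passed for 3009 of all 22533 features. Of the 10 genes it passed there for 2, Ptger4 at -0.36 ± 0.10 and Ptges2 at 0.22 ± 0.09. The other 8 differed by between -0.13 and 0.15. Both arrays of cells labelled Ptger4-/- stood above both of Ptger4+/+ cells for Tbxa2r and Ptgs2, and below them for 3 genes, Ptger4, Ptgs1 and Ptges3. For Tbxa2r the closest arrays of the genotypes both read -0.02, and for Ptgs2 they were 0.51 and 0.50. The share of all features that separate so was not counted, so these separations are not read as a result about the 10 genes.

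The arrays at 24 h close a chain, since the genotypes were compared under anti-IgM with PGE2 and each genotype was also compared with and without PGE2. The ratio of cells labelled Ptger4-/- over Ptger4+/+ cells under anti-IgM alone, which no array measured, follows from it. By construction that ratio plus the difference of the PGE2 responses equals the ratio measured with PGE2, so the 3 values are not independent of each other. Under anti-IgM alone, Tbxa2r was at 0.9 ± 0.11 (interval 0.64 to 1.16) and Ptgs2 at 0.6 ± 0.12 (interval 0.31 to 0.89). Ptger4 was at -0.14 ± 0.12 (interval -0.42 to 0.13), Ptges3 at -0.24 ± 0.10 (interval -0.47 to -0.01) and Ptger2 at -0.34 ± 0.08 (interval -0.53 to -0.14). No gene of the set passed the test over all features, in which limma called 1 feature, 0.00444%, and 1747 at an unadjusted p under 0.05. The adjusted p was 0.121 for Tbxa2r, with an unadjusted p of 6.99e-05, and 0.33 for Ptgs2, 0.425 for Ptger2, 0.636 for Ptges3 and 0.788 for Ptger4, all by limma. With PGE2 present, the values measured on arrays were 1.68 for Tbxa2r, 1.04 for Ptgs2, 0.49 for Ptger4, 0.3 for Ptges3 and 0.2 for Ptger2. Thus Tbxa2r and Ptgs2 had positive values without and with PGE2, and Ptger4, Ptger2 and Ptges3 had negative values without it and positive ones with it.

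**Figure D3:**
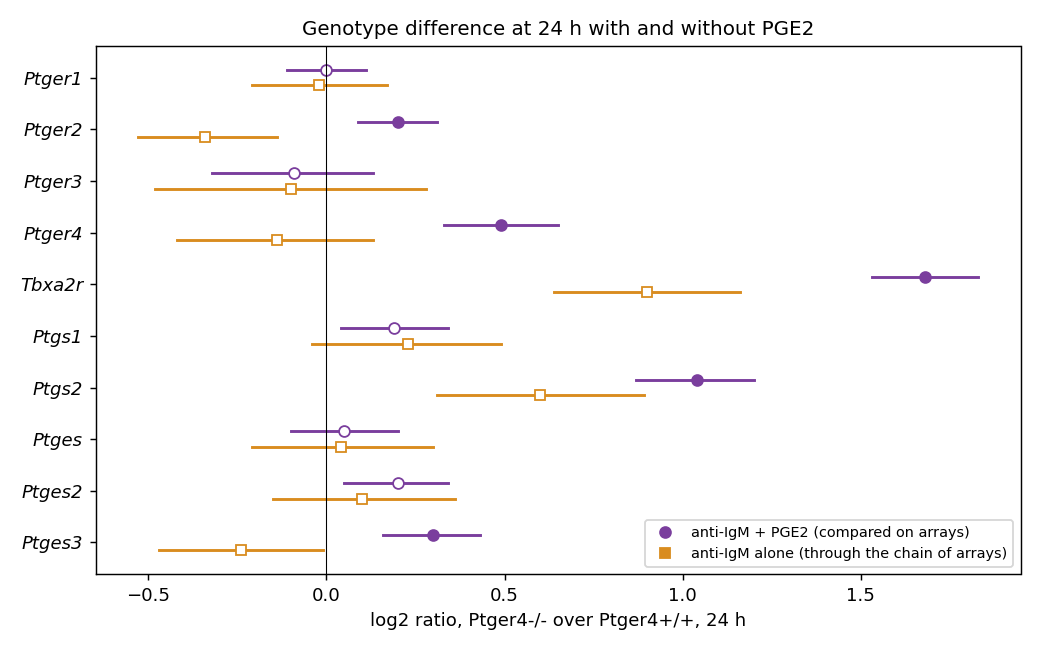
Log2 ratio of cells labelled Ptger4-/- over Ptger4+/+ cells at 24 h for each gene, with anti-IgM and PGE2 as compared on arrays (circles, upper) and with anti-IgM alone as obtained through the chain of arrays (squares, lower). Lines are 95% confidence intervals and filled points passed limma's adjusted p under 0.05. Tbxa2r lies at 1.68 with PGE2 and at 0.9 without, Ptger2 at 0.2 with PGE2 and at -0.34 without.

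Over the 10 arrays the courses of the 5 genes that changed most often were compared in pairs. Ptger4, Ptger2 and Ptges3 correlated with each other at Pearson's r = 0.91 to 0.97, and Tbxa2r and Ptgs2 at 0.94. Against the first 3 genes, r was 0.31 to 0.52 for Tbxa2r and 0.58 to 0.7 for Ptgs2. These are descriptions over arrays that share RNA conditions and fall into 5 pairs, and no test was made of them. The genes most like each, by Pearson's r over the 10 arrays among 9082 genes with a call in some comparison, were looked up by the same measure. For Ptger4 they were Tufm (0.987), Ddx54 (0.984), Snhg5 (0.983), Hat1 (0.981) and Ddx39a (0.975). For Ptger2 they were Tmbim1, Hirip3, Mre11a, Sar1b and Fastkd2, from 0.984 to 0.979, and for Ptges3 they were Srek1, Simc1, Bfar, Nup43 and Tada1, from 0.993 to 0.991. Tbxa2r was most like H3c10, Dnajc7, Isg15, Ncoa6 and Bst2, from 0.989 to 0.986. Between the genotypes these 5 stood at 2.55 (Dnajc7), 2.02 (Isg15), 1.42 (H3c10 and Bst2) and 0.36 (Ncoa6), against 1.68 for Tbxa2r. Ptgs2 was most like Arl1, Macroh2a1, Zfp330, Atxn10 and Arfgef2, from 0.995 to 0.989.

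The other genes of the prostanoid pathway are read against the shares of all features called, for anti-IgM 11.6% (higher) and 11.7% (lower) with RNA labelled Ptger4-/- and 9.71% and 11.4% with Ptger4+/+ RNA. With PGE2 the shares were 0.146% in either direction in cells labelled Ptger4-/- and 9.11% higher and 17% lower in Ptger4+/+ cells, and between the genotypes 15.9% and 11%. None of the 4 other prostanoid receptor genes was called with anti-IgM or PGE2, and between the genotypes 1 was, the prostacyclin receptor gene Ptgir at -0.31 and -0.27 (mean -0.29 ± 0.07, limma adjusted p = 0.0181). Of 5 other terminal synthase genes, only Prxl2b, which encodes a prostaglandin F synthase, was called in any comparison. It had -0.42 and -0.15 with PGE2 in Ptger4+/+ cells (mean -0.29 ± 0.05, limma adjusted p = 0.00762), 0.31 and 0.13 between the genotypes (mean 0.22) and, with anti-IgM in Ptger4+/+ cells, -0.13 and -0.28 (mean -0.2). The difference of its PGE2 responses also passed (0.29 ± 0.07, limma adjusted p = 0.0457). It was 1 of the 5 to do so, against 12.7% of all features in either direction. Among 8 phospholipase genes that release arachidonic acid, Pla2g1b fell with PGE2 in Ptger4+/+ cells (-0.29 and -0.26, mean -0.27) and was higher in cells labelled Ptger4-/- between the genotypes (0.27 and 0.24, mean 0.25). Pla2g4c rose with anti-IgM in cells labelled Ptger4-/- (mean 0.17), and the cytosolic phospholipase gene Pla2g4a made no call.

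Among 7 genes of prostaglandin transport and breakdown, 3 fell and 1 rose with anti-IgM at 2 h in cells labelled Ptger4-/-, and 2 fell and 0 rose in Ptger4+/+ cells, counts too small to set against the shares above. The median of these 7 was -0.14 in cells labelled Ptger4-/- and -0.04 in Ptger4+/+ cells. Cbr1, encoding a carbonyl reductase that can turn PGE2 into prostaglandin F2alpha, stood at -0.72 and -0.60 in cells labelled Ptger4-/- and at -0.82 and -0.77 in Ptger4+/+ cells (means -0.66 and -0.8, limma adjusted p = 0.000301 and 0.000142). Ptgr2, a prostaglandin reductase gene, fell in cells labelled Ptger4-/- (mean -0.38), where Abcc4, whose product exports prostaglandins, rose (0.16). Ptgr1, whose product inactivates prostaglandins and leukotriene B4, was higher between the genotypes in cells labelled Ptger4-/- (0.40 and 0.36, mean 0.38 ± 0.04, limma adjusted p = 0.000508) and fell with PGE2 in Ptger4+/+ cells (mean -0.17). The difference of the PGE2 responses passed for none of these 7, against 12.7% of all features. The lipoxygenase and leukotriene branch draws on the same arachidonic acid. Of its 9 genes, too few to set against the shares above, 2 fell with anti-IgM in each genotype. They were Lta4h and Ltc4s in cells labelled Ptger4-/- (-0.22 and -0.42) and Lta4h and Ltb4r1 in Ptger4+/+ cells (-0.22 and -0.21), Lta4h encoding the hydrolase that makes leukotriene B4, Ltc4s the leukotriene C4 synthase and Ltb4r1 a leukotriene B4 receptor. With PGE2, 0 of the 9 were called in cells labelled Ptger4-/-, while in Ptger4+/+ cells Lta4h fell (-0.23 ± 0.04, limma adjusted p = 0.00728) and Ltb4r1 rose (0.22 ± 0.05, limma adjusted p = 0.0123). The arrays of Ltb4r1 gave 0.45 and 0.00 there. The difference of the PGE2 responses passed for Lta4h alone of the 9 (0.26 ± 0.06, limma adjusted p = 0.0314), against 12.7% of all features. That is too few to read as a result about the branch. Between the genotypes none of the 9 was called.

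Because Ptges3 is also p23, 14 other genes were set beside it. They are genes of Hsp90, its co-chaperones and the Hsp70-family chaperones Hspa8 and Hspa4. With anti-IgM, 8 rose and 1 fell in cells labelled Ptger4-/-, against 11.6% and 11.7% of all features, and 9 rose and 1 fell in Ptger4+/+ cells, against 9.71% and 11.4%. Ppid, a cyclophilin that binds Hsp90, rose most, at 1.28 and 1.29 in cells labelled Ptger4-/- and 1.32 and 1.31 in Ptger4+/+ cells, and the gene that fell was Sugt1 (-0.4 in each). With PGE2, 0 were called in cells labelled Ptger4-/- (0.146% of all features) and 8 fell in Ptger4+/+ cells (17% of all features lower), led by Stip1, the adaptor between Hsp70 and Hsp90. Stip1 gave -0.26 and -0.13 in cells labelled Ptger4-/- and -1.20 and -1.02 in Ptger4+/+ cells. Between the genotypes 8 were higher and 0 lower (15.9% and 11% of all features), with Stip1 at 1.23 ± 0.09, Hsp90aa1 at 0.79 ± 0.07 and Fkbp4, an Hsp90-binding immunophilin gene, at 1.2 ± 0.11 (limma adjusted p up to 0.000343). The difference of the PGE2 responses passed for 6 (12.7% of all features), among them Stip1 (0.92 ± 0.12), Hsp90aa1 (0.67 ± 0.09) and Sugt1 (0.62 ± 0.09). The median of the 14 was 0.46 in each genotype with anti-IgM, 0.02 with PGE2 in cells labelled Ptger4-/-, -0.38 with PGE2 in Ptger4+/+ cells and 0.24 between the genotypes. Ptges3 itself lay at 0.68 and 0.79 with anti-IgM, at -0.02 and -0.55 with PGE2 and at 0.3 between the genotypes.

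**Figure D4:**
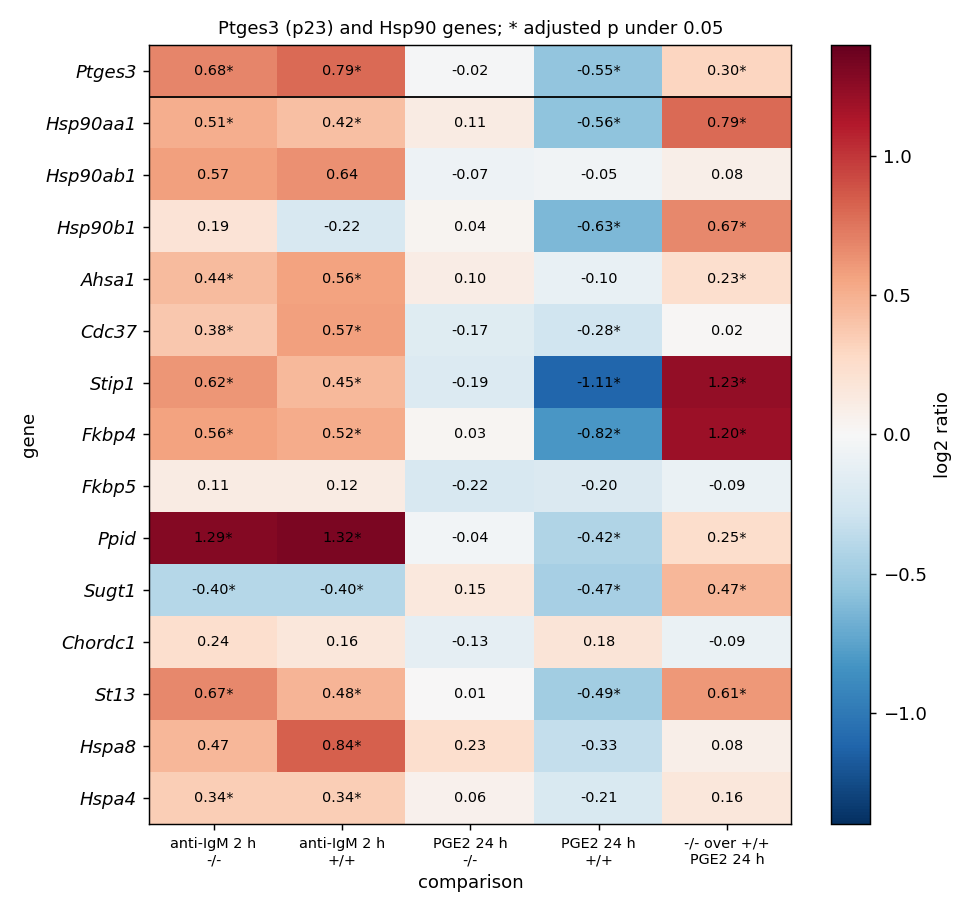
Mean log2 ratio of Ptges3 (top row) and of the 14 genes of Hsp90, its co-chaperones and Hsp70-family chaperones (rows below). Columns are the 5 comparisons, with stars where limma's adjusted p was under 0.05. Colour runs from blue (negative) to red (positive). The column of PGE2 in cells labelled Ptger4-/- holds no star, while that of PGE2 in Ptger4+/+ cells holds negative starred values for Ptges3 and 8 of the 14.

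Markers of cell types moved in the same comparisons, and their part in the results was not tested. The arrays give no level, so whether a marker is near background is not known, and 9 B cell, 9 T cell, 9 monocyte and macrophage, 9 neutrophil and 10 platelet markers had a probe. With PGE2, 1 B cell marker was called in cells labelled Ptger4-/- (lower) and 4 in Ptger4+/+ cells (higher). Between the genotypes 4 were lower and 0 higher, over a range of -1.18 to 0.1. Of all features, PGE2 changed 0.146% in cells labelled Ptger4-/- and raised 9.11% and lowered 17% in Ptger4+/+ cells. Between the genotypes 15.9% were higher and 11% lower. Counts of 1 or 2 markers in this paragraph are too small to set against these shares. The B cell receptor subunit gene Cd79a gave -0.75 and -0.87 with PGE2 in cells labelled Ptger4-/-, 1.02 and 0.81 in Ptger4+/+ cells and -1.16 and -1.21 between the genotypes. With anti-IgM, 5 of the 9 B cell markers fell and 1 rose in each genotype. Cd79b was at -2.51 in cells labelled Ptger4-/- and -2.2 in Ptger4+/+ cells. Of all features, anti-IgM lowered 11.7% and raised 11.6% in cells labelled Ptger4-/-, and lowered 11.4% and raised 9.71% in Ptger4+/+ cells. Adgre1, encoding the macrophage antigen F4/80, gave -0.07 and -0.11 with PGE2 in cells labelled Ptger4-/-, 0.65 and 0.73 in Ptger4+/+ cells and -0.87 and -0.80 between the genotypes. Over the 9 monocyte and macrophage markers, 0 were called with PGE2 in cells labelled Ptger4-/- and 2 were higher in Ptger4+/+ cells, Adgre1 and Fcgr1 (0.21). Between the genotypes 1 was higher, Cd68 (0.2), and 2 were lower, Adgre1 and Fcgr1 (-0.16). The median of the 9 was 0.11 with PGE2 in Ptger4+/+ cells and 0 between the genotypes, so Adgre1 stood apart from its list. Of the markers of platelets, cells known for Tbxa2r and Ptgs1, 1 of 10 was higher between the genotypes (Gp1bb, 0.26) and 0 were called with PGE2 in cells labelled Ptger4-/-, against 2 higher in Ptger4+/+ cells (Itgb3 at 0.26 and Gp1ba at 0.23). T cell markers gave 0 calls with PGE2 in cells labelled Ptger4-/-, 1 in Ptger4+/+ cells and 1 between the genotypes (Trat1 at 0.25 and -0.27), and neutrophil markers gave 1 call between the genotypes (Ltf at -0.19) and 0 with PGE2.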

How the data were processed

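RNA of splenic B cells was hybridised in pairs to mouse oligonucleotide arrays with 2 colours, after purification on columns and T7 amplification per the labels' protocols. The deposited table holds 1 log ratio per probe and array, which the authors had normalised; how is not given in the sources used here. The values were read as log2 of Cy5 over Cy3. Base 10 cannot hold, because the lowest deposited value is -9.03 and a 16-bit scanner reaches only 4.82 on that scale, but natural logs, with a limit of 11.1, cannot be told apart from log2, and every log2 value would then be 1.44 times larger.

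Ratios were turned by the dye labels and probes of 1 symbol averaged, giving 22533 features from 25344 probes. Symbols were updated through the RefSeq gene table. limma 3.58.1 in R 4.3.3 fitted all 10 arrays with 5 group terms and a dye effect per feature (4 residual degrees of freedom), and p-values were adjusted over all features by the Benjamini-Hochberg method for 8 contrasts. The fit was tested on simulated data. The 10 genes, the pathway and marker lists and the tests were chosen with earlier results of these data known. All 10 genes are named in every comparison, and of each list up to 3 called genes of smallest p per direction. Genes of like course are the 5 of highest Pearson's r among genes with a call. The closing part gives the effect of 19 alternatives: no dye term, centring, scaling, single probes, only the arrays of the contrast, a minimum fold, a stricter threshold, a robust prior, natural logs and each array left out.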

Additional observations from a re-analysis of the deposited data

Results flagged for a closer look

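The response to PGE2 with anti-IgM at 24 h differed between the genotypes, by a test of the difference itself, for 5 of the 10 genes. Of all features, 12.7% were called in either direction. All 5 calls were lost when only the 4 arrays of PGE2 were fitted, and against a minimum fold of 1.5. How many of all features kept a call in those fits was not counted. As cells labelled Ptger4-/- minus Ptger4+/+ cells on the log2 scale, Ptger2 differed by 0.54, from means of -0.07 and -0.61. Ptger4 differed by 0.63, with means of 0.04 and -0.59, and Tbxa2r by 0.77, with 0.06 and -0.71. Ptges3 differed by 0.54, with -0.02 and -0.55, and Ptgs2 by 0.44, with 0.32 and -0.12. In all 5, both arrays of cells labelled Ptger4-/- stood above both arrays of Ptger4+/+ cells. These arrays also gave the test, and the share of all features that separate so was not counted. The separation is therefore no further evidence. The arrays of PGE2 in cells labelled Ptger4-/- correlated at -0.22 with each other over all features and at 0.35 over the 10 genes.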

How the results depend on the processing

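Over 10 genes, 8 contrasts and 19 alternatives, 1416 values kept their direction and side of the threshold, 57 lost a call, 7 gained one and 40 took the other sign, 0 of them called in either fit. Of the 10 genes, the number called with anti-IgM in cells labelled Ptger4-/- was 5, and 3 without the dye term, 3 with only the arrays of the contrast, 3 at adjusted p under 0.01, 0 against a minimum fold of 1.5 and 3 to 5 with an array left out. In Ptger4+/+ cells it was 4, 1 against the minimum fold and 3 to 5 with an array left out. With PGE2 in Ptger4+/+ cells it was 4, but 2 with only the arrays of the contrast and 0 against the minimum fold, and in cells labelled Ptger4-/- it was 0 throughout. Between the genotypes it was 5, and 3 with only the arrays of the contrast, 2 against the minimum fold and 2 to 6 with an array left out. For the difference of the PGE2 responses it was 5, but 0 with only the arrays of the contrast, 0 against the minimum fold and 2 to 5 with an array left out. With only the arrays of the contrast there are fewer residual degrees of freedom. Calls over all features were not counted in that fit or against the minimum fold. Where an array is left out, the lone one is assumed to vary like the others. Of the called values, Tbxa2r and Ptgs2 between the genotypes and Ptger4 with anti-IgM in Ptger4+/+ cells kept their calls under all 19.

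Calls over all features fell without the dye term, with PGE2 to 7 in cells labelled Ptger4-/- and 2906 in Ptger4+/+ cells, against 33 and 5888 with it. With anti-IgM they fell to 3665 in cells labelled Ptger4-/-, against 5259, and to 3171 in Ptger4+/+ cells, against 4749. Between the genotypes they fell to 2749, against 6069. They fell to 7 for the difference of the anti-IgM responses, against 391, and to 1111 for that of the PGE2 responses, against 2852. Scaling gave 167 and 3639 for PGE2 in cells labelled Ptger4-/- and Ptger4+/+ cells, 1763 for the difference of the PGE2 responses and 3 for the genotypes under anti-IgM alone, where the fit with the dye term gave 1 and that without it 0. The share of higher calls moved by over 10 points without the dye term, to 577 higher and 2329 lower with PGE2 in Ptger4+/+ cells and to 2130 higher and 619 lower between the genotypes, against 2053 and 3835 and 3593 and 2476 with it. With scaling it moved as far for PGE2, to 27 higher and 140 lower in cells labelled Ptger4-/- (2 and 31 unscaled) and 856 and 2783 in Ptger4+/+ cells. The cause was not tested.

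The 40 values of other sign belong to 27 results, 34 of them with an array left out, which ran as follows. With anti-IgM, cells labelled Ptger4-/- gave -0.06 to 0.03 for Ptger1, -0.01 to 0.01 for Tbxa2r and -0.17 to 0.12 for Ptges. Ptger4+/+ cells gave -0.03 to 0.03 for Ptger1, -0.07 to 0.3 for Ptger3, -0.02 to 0.03 for Ptges and -0.05 to 0.18 for Ptges2. With PGE2, cells labelled Ptger4-/- gave -0.01 to 0.03 for Ptger1, -0.07 to 0.1 for Ptger3, -0.02 to 0.15 for Tbxa2r and -0.04 to 0.01 for Ptges3. Ptger4+/+ cells gave -0.05 to 0.04 for Ptger1, -0.11 to 0.13 for Ptger3, -0.16 to 0.09 for Ptgs1 and -0.06 to 0.08 for Ptges. Between the genotypes Ptger1 ran from -0.05 to 0.05. The difference of the anti-IgM responses ran from -0.06 to 0.03 for Ptger1, -0.09 to 0.28 for Ptger3 and -0.17 to 0.12 for Ptges. That of the PGE2 responses ran from -0.03 to 0.07 for Ptger1, -0.12 to 0.13 for Ptger3, -0.17 to 0.09 for Ptgs1 and -0.06 to 0.08 for Ptges. Under anti-IgM alone the genotypes gave -0.07 to 0.03 for Ptger1, -0.22 to 0.02 for Ptger3, -0.03 to 0.11 for Ptges and -0.02 to 0.22 for Ptges2. The other 6, with arrays centred or scaled, were 0 for Ptger1 and Ptges in Ptger4+/+ cells and for Tbxa2r in cells labelled Ptger4-/-, and -0.01 for Ptger1 between the genotypes. Each value is a ratio of RNAs on the same array. Arrays of different comparisons could not be paired with each other, because the labels give the arrays no replicate numbers. Signal over background was not analysed here, so dim probes were not set aside.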
